A study of Homo sapiens with 12 samples.

Results

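The ZBTB, ZSCAN and ZKSCAN genes code for zinc finger transcription factors and were taken from the count table by symbol: ZBTB with a number and an optional letter, ZSCAN with a number and an optional letter, or ZKSCAN with a number. This rule found 68 of the 26334 symbols, 41 BTB-type genes (ZBTB) and 27 SCAN-type genes (20 ZSCAN and 7 ZKSCAN). Their transcripts were followed in A673, an established Ewing sarcoma line, in cells that the labels name shA673-1c. The sources used here do not give the target of a hairpin in these cells or name its induction. All cells were grown in high-glucose DMEM with serum, blasticidin and zeocin, and all received 5 µM actinomycin D, an inhibitor of transcription, for 0, 1, 2 or 4 h. Each time point had 3 biological replicates, which gives 12 poly(A)-selected, stranded RNA-Seq libraries. The study used such time courses to estimate transcript half-lives. No untreated culture of 1, 2 or 4 h is among these libraries, so the 0 h libraries are the comparison throughout.

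Each of these proteins binds DNA through C2H2 zinc fingers, in which a pair of cysteines and a pair of histidines hold a zinc ion. In the BTB-type proteins, the BTB (or POZ) domain at the amino end forms dimers and recruits corepressors such as NCOR1 and BCOR, and in some members the ubiquitin ligase scaffold CUL3. In the SCAN-type proteins, the SCAN domain pairs with the SCAN domain of the same or another family member. ZKSCAN proteins carry a KRAB domain as well. Many KRAB domains, though not all, bind TRIM28, which brings in the histone methyltransferase SETDB1 and the CBX heterochromatin proteins. Whether those of the ZKSCAN proteins do so was not examined here.

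The reading frames of the 60 genes with enough counts to be tested differed between the types. In the GENCODE version 44 reference transcripts (build GRCh38), BTB-type genes had a median of 3 exons and 4 C2H2 fingers and SCAN-type genes of 5.5 exons and 6 fingers. Fingers were counted by matching a set spacing of cysteines and histidines in the translated frame, so fingers with another spacing were missed. The conserved linker that joins neighbouring fingers (threonine, glycine, glutamate, lysine, proline) was coded at least once by 20 of 22 tested SCAN-type genes (90.9%) but by 13 of 38 BTB-type genes (34.2%), against 3.31% of 11398 tested genes with a reading frame. Codons of this linker in 2 SCAN-type genes and in ZBTB17, a BTB-type gene with 4 such linkers, follow, with the linker codons in capitals, to show the same 5 residues written with different codons.
ZSCAN21 (chr7:100064087-100064113, plus strand): acacacACTGGGGAGAAACCTtacgtg
ZKSCAN2 (chr16:25240308-25240334, minus strand): atccacACAGGCGAAAAACCTtttaaa
ZBTB17 (chr1:15944762-15944788, minus strand): atccacACGGGGGAGAAGCCCttctcg

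Median 3' UTR length was 2973 bases in BTB-type and 2388 bases in SCAN-type genes, both longer than the 1406 bases over all tested genes with a 3' UTR. The AU-rich pentamer ATTTA, searched on the transcript strand, was present in the 3' UTR of 33 of 38 BTB-type genes (86.8%), 17 of 22 SCAN-type genes (77.3%) and 74.8% of all 11390 genes. Overlapping pentamers (ATTTATTTA, likewise on the transcript strand) were found in 5 of the 60 tested members (8.33%) and in 8.18% of all genes. Their surroundings are printed because these 5 genes cover nearly the whole range of slopes among the members that fell, from ZSCAN9 to ZBTB37. Capitals mark the motif.
ZSCAN9 (chr6:28233399-28233423, plus strand): tatttataATTTATTTAtttttttg
ZKSCAN2 (chr16:25236916-25236940, minus strand): caacctatATTTATTTAatttcatc
ZBTB26 (chr9:122915815-122915839, minus strand): tgtcagttATTTATTTAttatttaa
ZBTB39 (chr12:57001268-57001292, minus strand): acattaatATTTATTTAtttttgtt
ZBTB37 (chr1:173899423-173899447, plus strand): agccagttATTTATTTAaaaagtag

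Library totals lay between 9147018 and 11194705 counts, and no pair of replicates agreed within counting error. Of 8 Ewing sarcoma markers, 7 were tested and present, and CD99 was listed at 0 in every library. Markers of immune, endothelial and epithelial cells (8 genes) summed to between 2 and 12 counts per library. The short-lived transcripts JUN and IER2 fell, by 0.89 and 0.84 log2 units per hour, whereas GAPDH and ACTB rose by 0.15 and 0.12 (edgeR adjusted p of at most 0.000420). Levels are in CPM, counts scaled to library size with TMM factors, which hold the bulk of genes near constant. A slope is the change in log2 CPM per hour and is relative to that bulk, because no spike-in RNA was used for the scaling. Fewer cells and less RNA per cell cannot be told apart in such data.

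Of the 68 genes, 60 had a mean of at least 10 counts and were tested, 38 BTB-type and 22 SCAN-type. ZBTB32, a lymphocyte repressor, ZSCAN1, and ZSCAN4, a gene of early embryos and telomere maintenance, had no count in any library. ZBTB7C, ZBTB8B, ZSCAN5B and ZSCAN10, the last an embryonic stem cell factor, had at most 2 counts in a library. ZKSCAN7 had a mean of 6.00 counts and a highest of 11. At 0 h the tested genes ranged from 0.978 CPM (ZBTB46) to 96.8 CPM (ZKSCAN1). Per kilobase of reference transcript, the highest levels at 0 h were those of ZBTB2 (20.3 CPM per kilobase), ZBTB1 (15.5), ZBTB17 (12.4), ZBTB9 (10.6) and ZBTB33 (10.6). ZKSCAN1 headed the SCAN-type genes on this scale with 10.3 CPM per kilobase.

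Transcripts of most members fell after transcription was blocked. By slope, 30 of 38 BTB-type genes fell (78.9%) and 20 of 22 SCAN-type genes fell (90.9%), against 32.1% of all 12032 genes tested, of which 30.7% rose (edgeR quasi-likelihood test, Benjamini-Hochberg adjusted p below 0.05). The count of members that rose was 0, at adjusted p or at an unadjusted p under 0.05, in edgeR or in DESeq2, in which 29 BTB-type and 20 SCAN-type genes fell. The median slope was -0.29 log2 units per hour in BTB-type genes (quartiles -0.42 and -0.11) and -0.31 in SCAN-type genes (quartiles -0.53 and -0.25). Over all genes the median was 0.0093. Genes named ZNF with a number, the largest group of C2H2 proteins, lay in the same range, with a median of -0.29 and falls in 304 of 387 (78.6%). With the replicate number as a block, 31 BTB-type and 20 SCAN-type genes fell, against 34.8% of all genes.

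**Figure D1:**
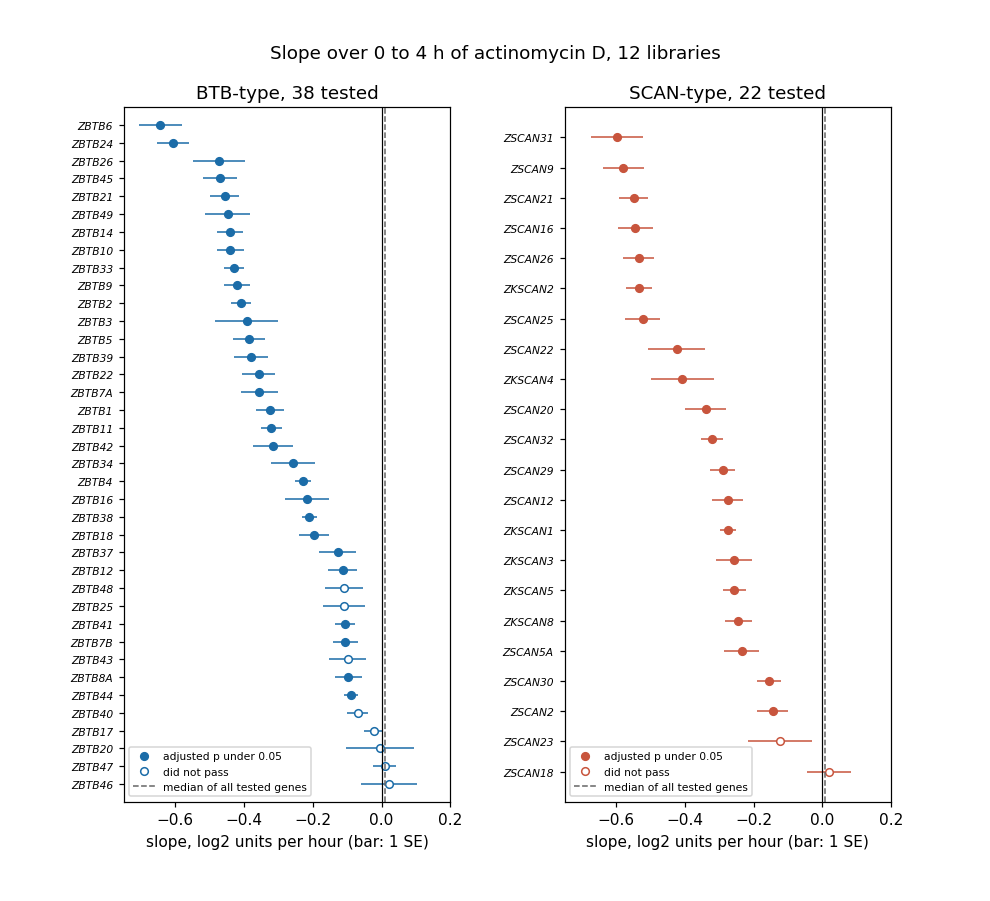
Slope in log2 units per hour (x axis) of each of the 38 tested BTB-type genes (left) and 22 tested SCAN-type genes (right), sorted by slope, with bars of 1 SE from the fit to 12 libraries. Filled points passed adjusted p below 0.05, open points did not, and the dashed line is the median of all tested genes, 0.0093. Filled points lie to the left of 0 in both panels, from -0.64 (ZBTB6) to -0.089 (ZBTB44).

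Every 4 h library was below every 0 h library for 30 BTB-type and 20 SCAN-type genes, against 33.0% of all genes. Summed over the class, BTB-type transcripts at 4 h stood at 50.9% ± 0.68 of their 0 h CPM (SD, n = 3) and SCAN-type transcripts at 44.1% ± 1.96. At 1 h these sums were 82.6% ± 2.16 and 84.3% ± 2.80. At 2 h they were 60.4% ± 1.04 and 57.6% ± 0.63. The ranges of the 3 replicates overlapped between the types at 1 h and were apart at 2 h and 4 h, with the SCAN-type sum lower. Members are not replicates, so no test was run between the types.

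Fitted to 1 replicate at a time, the median slope was -0.29, -0.26 and -0.27 in BTB-type genes and -0.33, -0.30 and -0.31 in SCAN-type genes. SCAN-type medians were thus lower in 3 of 3 replicates, by 0.042 ± 0.0026 log2 units per hour (SD, n = 3). This SD is over fits of the same genes and does not measure the spread between genes. In the joint fit the SCAN-type minus BTB-type median was only -0.019, and with no filter on counts it was -0.00090. Among related genes under other names, the BTB median (-0.34) was below the SCAN median (-0.24). Each difference among the members is small beside the spread within each type. There the slopes ran from -0.64 to 0.022 among BTB-type and from -0.60 to 0.020 among SCAN-type genes. Of the median and quartiles, the types parted most at the upper quartile, at -0.11 for BTB-type and -0.25 for SCAN-type genes.

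Among BTB-type genes the steepest fall was that of ZBTB6, whose slope of -0.64 ± 0.062 log2 units per hour (SE, edgeR adjusted p = 1.88e-07) ranked 263 of 12032 genes from the lowest. ZBTB6 had 25.1, 26.9 and 27.2 CPM at 0 h, 14.7, 14.6 and 15.7 at 1 h, 6.15, 5.87 and 7.44 at 2 h and 5.56, 4.25 and 5.37 at 4 h. Its libraries separated completely between 0, 1 and 2 h, and 19.2% of the 0 h level was left at 4 h. If the slope is read as exponential decay, the half-life (-1 divided by the slope) was 1.55 h. ZBTB6 departed from a straight line, however (edgeR adjusted p = 0.00522), so a single half-life describes it only roughly. Half-lives, like slopes, are relative to TMM scaling, and with GAPDH plus ACTB as the reference the slope of ZBTB6 was -0.77. ZBTB24, whose mutation causes the immunodeficiency, centromeric instability and facial anomalies syndrome, came next, with 35.3, 35.2 and 30.2 CPM at 0 h, 26.4, 29.7 and 25.5 at 1 h, 14.5, 11.7 and 11.1 at 2 h and 6.04, 7.73 and 6.94 at 4 h. Its slope was -0.61 ± 0.047 (SE, adjusted p = 1.84e-08), equal to a half-life of 1.65 h, and its largest step was between 1 and 2 h.

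ZBTB26, which lies 2243 bases from ZBTB6 on chromosome 9, had 5.99, 9.25 and 7.63 CPM at 0 h, 4.69, 4.61 and 6.98 at 1 h, 2.68, 2.12 and 4.74 at 2 h and 1.54, 2.13 and 2.91 at 4 h. The slope was -0.47 ± 0.075 (SE, adjusted p = 3.98e-05), with wide spread between replicates at each time and 0 h and 4 h libraries well apart. ZBTB45 had 10.9, 11.3 and 14.7 CPM at 0 h, 10.4, 9.32 and 10.97 at 1 h, 7.24, 5.26 and 5.32 at 2 h and 3.79, 3.96 and 2.91 at 4 h. ZBTB21 had 34.5, 37.6 and 36.3 CPM at 0 h, 26.5, 30.01 and 31.3 at 1 h, 15.4, 18.6 and 13.4 at 2 h and 12.5, 10.6 and 9.85 at 4 h. Both had a lower mean at each later time, with slopes of -0.47 ± 0.048 (SE, adjusted p = 3.68e-07) and -0.46 ± 0.041 (SE, adjusted p = 9.12e-08). ZBTB49 had 6.97, 5.59 and 6.21 CPM at 0 h, 6.31, 5.89 and 3.63 at 1 h, 2.38, 3.94 and 2.71 at 2 h and 1.78, 2.42 and 1.57 at 4 h, with a slope of -0.45 ± 0.066 (SE, adjusted p = 1.81e-05). Its 0 h and 1 h libraries overlapped, whereas all 2 h libraries except replicate 2 lay below all 1 h libraries. Half-lives of these 4 genes ran from 2.12 h to 2.23 h.

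Among SCAN-type genes the 6 steepest falls lay close together, from -0.60 to -0.53 log2 units per hour. ZSCAN31 was lowest, at -0.60 ± 0.077 (SE, adjusted p = 4.15e-06), but it rested on a mean of 18.8 counts. Its libraries had 2.85, 2.79 and 4.44 CPM at 0 h, 1.53, 2.06 and 1.99 at 1 h, 1.69, 1.31 and 1.06 at 2 h and 0.710, 0.773 and 0.448 at 4 h, and replicate 3 had both the highest 0 h and the lowest 4 h value. ZSCAN9 had 8.25, 7.997 and 8.69 CPM at 0 h, 5.64, 6.77 and 6.80 at 1 h, 2.68, 2.73 and 2.997 at 2 h and 1.66, 1.74 and 2.35 at 4 h, with a slope of -0.58 ± 0.059 (SE, adjusted p = 3.41e-07). Replicates of ZSCAN9 stayed close at every time, and most of its loss was over by 2 h.

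ZSCAN21 had 14.1, 14.7 and 13.4 CPM at 0 h, 11.2, 12.1 and 10.3 at 1 h, 7.34, 5.16 and 6.57 at 2 h and 2.60, 3.48 and 3.58 at 4 h, and its slope was -0.55 ± 0.043 (SE, adjusted p = 2.12e-08). ZSCAN16 had 7.17, 7.23 and 6.48 CPM at 0 h, 4.59, 6.67 and 5.44 at 1 h, 2.88, 3.64 and 3.38 at 2 h and 1.54, 1.84 and 1.34 at 4 h, with a slope of -0.54 ± 0.051 (SE, adjusted p = 1.41e-07). ZSCAN26 had 18.9, 21.00 and 19.3 CPM at 0 h, 17.7, 18.3 and 16.5 at 1 h, 11.8, 7.59 and 9.38 at 2 h and 4.97, 4.54 and 4.92 at 4 h, with a slope of -0.53 ± 0.045 (SE, adjusted p = 4.85e-08). All 3 fell again in the last interval, by 0.97, 1.05 and 1.00 log2 units at 4 h against 2 h. ZKSCAN2, whose 3' UTR and linker are printed above, had 21.6, 23.6 and 20.7 CPM at 0 h, 17.7, 14.5 and 15.4 at 1 h, 8.83, 9.91 and 7.73 at 2 h and 5.44, 5.32 and 5.26 at 4 h, with a slope of -0.53 ± 0.038 (SE, adjusted p = 9.47e-09). The 4 h libraries of ZKSCAN2 were nearly alike. Half-lives of the 6 genes ran from 1.67 h to 1.88 h.

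**Figure D2:**
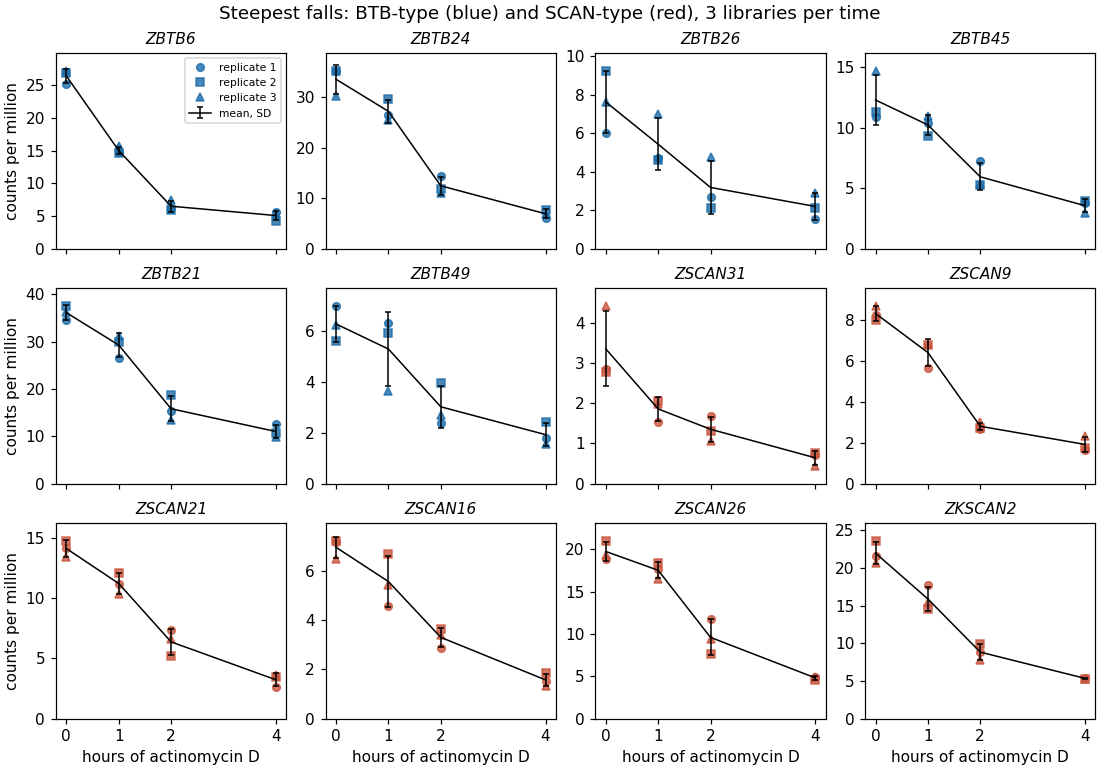
CPM (y axis, linear, from 0) against hours of actinomycin D (x axis) for the 6 steepest falls among BTB-type genes (blue) and among SCAN-type genes (red). Symbols are the 3 replicates, and the black line joins means with bars of 1 SD. In each panel all 4 h libraries lie below all 0 h libraries. ZBTB6 drops from between 25.1 and 27.2 to between 4.25 and 5.56 CPM.

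The 3 most abundant BTB-type transcripts ranged from a slope near 0 to a steep fall. ZBTB40 was the highest of the BTB-type genes, with 87.4, 80.4 and 67.1 CPM at 0 h, 81.04, 91.1 and 72.6 at 1 h, 68.3, 71.8 and 56.3 at 2 h and 72.5, 67.7 and 61.6 at 4 h. Its groups overlapped, and its slope of -0.069 ± 0.030 log2 units per hour (SE, edgeR adjusted p = 0.0567) did not pass. With the replicate block the same slope passed (adjusted p = 0.00851). ZBTB2 had 63.3, 70.4 and 55.00 CPM at 0 h, 47.3, 56.5 and 44.1 at 1 h, 40.1, 37.02 and 31.9 at 2 h and 20.2, 22.5 and 18.4 at 4 h, and its 2 h and 4 h libraries lay below all of its 0 h libraries. Its slope was -0.41 ± 0.029 (SE, adjusted p = 9.36e-09). ZBTB11 had 59.8, 58.9 and 58.2 CPM at 0 h, 56.4, 54.7 and 49.5 at 1 h, 44.6, 41.4 and 33.7 at 2 h and 25.1, 29.2 and 20.4 at 4 h, with a slope of -0.32 ± 0.030 (SE, adjusted p = 1.58e-07), and its smallest step was the first.

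ZKSCAN1 was the highest of all members, with 99.8, 91.8 and 98.9 CPM at 0 h, 92.1, 90.6 and 93.3 at 1 h, 79.1, 75.2 and 76.5 at 2 h and 47.6, 47.9 and 43.7 at 4 h. Its loss came late: the change was -0.074 ± 0.058 log2 units (SE, edgeR adjusted p = 0.664) at 1 h against 0 h and -0.73 ± 0.061 log2 units (SE, edgeR adjusted p = 2.7e-06) at 4 h against 2 h. A circular RNA is known from the ZKSCAN1 locus, and counts per gene symbol do not separate it, though the libraries were poly(A)-selected. The share of the circular RNA in these counts was not tested. ZKSCAN8 had 66.8, 56.7 and 65.7 CPM at 0 h, 54.1, 55.4 and 60.8 at 1 h, 34.1, 35.9 and 34.4 at 2 h and 30.8, 31.1 and 40.1 at 4 h. ZSCAN29 had 40.2, 41.5 and 34.1 CPM at 0 h, 29.9, 28.5 and 28.8 at 1 h, 21.2, 19.02 and 18.1 at 2 h and 17.2, 17.4 and 18.5 at 4 h. Both showed their largest step between 1 and 2 h. Their slopes were -0.24 ± 0.038 (SE, adjusted p = 3.73e-05) and -0.29 ± 0.036 (SE, adjusted p = 3.21e-06).

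The interval between 1 and 2 h held the largest median change per hour in both types. At 1 h against 0 h the median change was -0.29 log2 units in BTB-type and -0.33 in SCAN-type genes. Here 7 BTB-type and 4 SCAN-type genes were lower (18.4% and 18.2%, against 2.24% of all genes and 15.2% of ZNF-named genes). The lower members were ZBTB1, ZBTB5, ZBTB6, ZBTB14, ZBTB18, ZBTB34 and ZBTB39, and ZKSCAN2, ZSCAN2, ZSCAN12 and ZSCAN29. With the replicate block these counts were 16 and 11, against 10.5% of all genes. They were 0 in both types without replicate 1 or without replicate 2 (edgeR), where 9 and 14 BTB-type and 6 and 8 SCAN-type genes had an unadjusted p under 0.05. Without replicate 3 they were 5 and 1.

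At 2 h against 1 h the median change was -0.43 in BTB-type and -0.62 in SCAN-type genes. Of these types, 20 (52.6%) and 16 (72.7%) were lower, against 12.5% of all genes and 52.2% of ZNF-named genes. All 6 tested ZKSCAN genes were among the lower members. The SCAN-type median was lower than the BTB-type median by 0.11, 0.16 and 0.16 log2 units in the 3 replicates. Without replicate 1 the counts dropped to 10 and 9, and without replicate 2 to 9 and 7.

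At 4 h against 2 h, an interval of 2 h, the median change was -0.16 in BTB-type and -0.23 in SCAN-type genes, or -0.082 and -0.12 per hour. Here 14 BTB-type (36.8%) and 8 SCAN-type genes (36.4%) were lower, against 18.3% of all genes and 22.5% of ZNF-named genes. The counts were 8 for BTB-type genes without replicate 2 and 5 for SCAN-type genes without replicate 1. ZBTB43 was the 1 member that was higher, against 12% of all genes, and without replicate 3 it no longer passed. With the replicate block 3 members were higher, ZBTB20, ZBTB34 and ZBTB43, against 25.3% of all genes. Over the whole course, at 4 h against 0 h, 30 BTB-type and 20 SCAN-type genes were lower, against 31.6% of all genes, with medians of -1.13 and -1.19 log2 units.

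**Figure D3:**
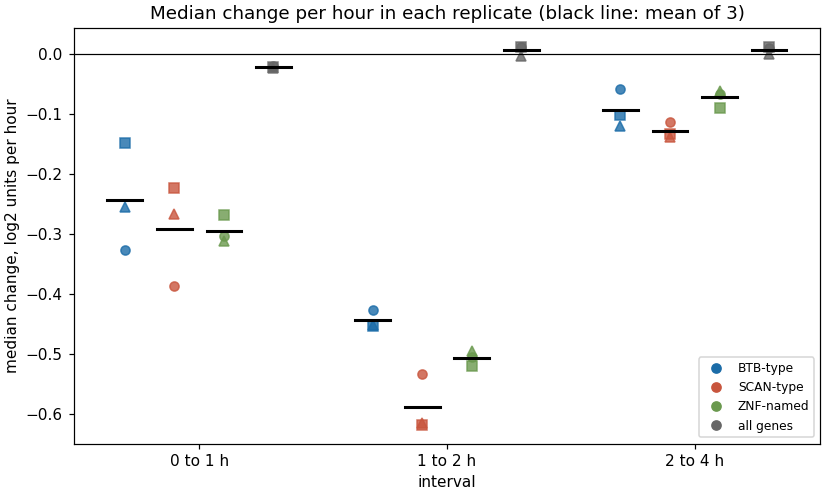
Median change in log2 units per hour (y axis) over the genes of each class in the 3 intervals (x axis), computed in each replicate from log2(CPM + 0.5). Symbols are replicates 1 (circle), 2 (square) and 3 (triangle), and the black line is their mean. BTB-type (blue), SCAN-type (red) and ZNF-named genes (green) are below 0 in all 3 intervals and lowest from 1 to 2 h, where SCAN-type genes lie between -0.62 and -0.53. All tested genes (grey) stay near 0.

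The 2 terms that describe departure from a straight line passed in 9 members (15.0%), 6 BTB-type and 3 SCAN-type, against 2.7% of all genes. Among ZNF-named genes they passed in 71 of 387 (18.3%), a share above that of the members. With the replicate block 26 members departed, against 17.2% of all genes. With GAPDH plus ACTB as the reference there were 6, and without replicate 3 there were 4. Without replicate 1 or without replicate 2 there were 0 (edgeR), with 22 and 23 members at an unadjusted p under 0.05. The 9 were ZBTB1, ZBTB5, ZBTB6, ZBTB34, ZBTB39, ZBTB43, ZKSCAN8, ZSCAN12 and ZSCAN29.

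ZBTB39 departed most clearly (edgeR adjusted p = 0.00162). It had 49.4, 47.4 and 44.9 CPM at 0 h, 33.6, 30.2 and 31.8 at 1 h, 18.9, 15.98 and 18.1 at 2 h and 18.9, 16.2 and 16.5 at 4 h. The 2 h and 4 h libraries overlapped, with a change of -0.039 ± 0.098 log2 units (SE, edgeR adjusted p = 0.804). ZBTB1, a factor of lymphoid development, showed the same form, with 51.9, 60.7 and 57.3 CPM at 0 h, 43.1, 43.7 and 38.3 at 1 h, 24.5, 25.3 and 25.7 at 2 h and 24.1, 22.4 and 25.2 at 4 h (edgeR adjusted p = 0.00466 for the departure). Its slope was -0.32 ± 0.041 (SE, adjusted p = 3.81e-06). In ZBTB6, listed above, the departure (edgeR adjusted p = 0.00522) was again a loss that slowed after 2 h.

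Relative to TMM scaling, ZBTB43 dropped and came back. Its libraries had 24.6, 21.3 and 21.8 CPM at 0 h, 19.4, 14.2 and 16.9 at 1 h, 12.5, 11.6 and 11.6 at 2 h and 16.3, 16.7 and 18.1 at 4 h, so that all 4 h libraries lay above all 2 h libraries and below all 0 h libraries. The change was -0.50 ± 0.12 log2 units (SE, edgeR adjusted p = 0.0118) at 2 h against 1 h and 0.52 ± 0.12 log2 units (SE, edgeR adjusted p = 0.00579) at 4 h against 2 h. As a line the slope of -0.10 ± 0.053 (SE, adjusted p = 0.12) did not pass. Its neighbour ZBTB34, 22429 bases away on chromosome 9, had 25.9, 21.97 and 24.2 CPM at 0 h, 15.7, 11.9 and 17.04 at 1 h, 10.02, 8.90 and 9.28 at 2 h and 11.8, 10.5 and 13.3 at 4 h. ZBTB34 also lay higher at 4 h than at 2 h in all 3 replicates, but that step did not pass, at 0.34 ± 0.15 log2 units (SE, edgeR adjusted p = 0.108). With the replicate block it passed, at 0.34 ± 0.12 log2 units (SE, edgeR adjusted p = 0.0177). ZSCAN12 had 10.8, 10.4 and 10.7 CPM at 2 h and 10.1, 10.9 and 11.9 at 4 h, after 24.1, 22.2 and 22.7 at 0 h.

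Other members were lower again at 4 h than at 2 h. Those with the clearest late step are named here by the lowest adjusted p at 4 h against 2 h, a choice made after their values were seen: ZKSCAN1, ZBTB33, ZBTB2, ZSCAN26, ZBTB22 and ZBTB24. ZBTB33 codes for Kaiso, which binds methylated CpG. It had 55.3, 60.8 and 50.9 CPM at 0 h, 43.1, 45.7 and 43.1 at 1 h, 33.9, 38.7 and 31.4 at 2 h and 17.5, 18.7 and 13.99 at 4 h, with a late change of -1.05 ± 0.11 log2 units (SE, edgeR adjusted p = 1.94e-05). ZBTB22 had 8.84, 10.02 and 10.3 CPM at 0 h, 9.57, 9.02 and 8.34 at 1 h, 6.95, 6.37 and 8.99 at 2 h and 3.31, 3.19 and 4.14 at 4 h. The 0 h and 1 h libraries of ZBTB22 overlapped, all 4 h libraries lay below every earlier one, and the change at 4 h against 2 h was -1.07 ± 0.18 log2 units (SE, edgeR adjusted p = 0.0005).

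**Figure D4:**
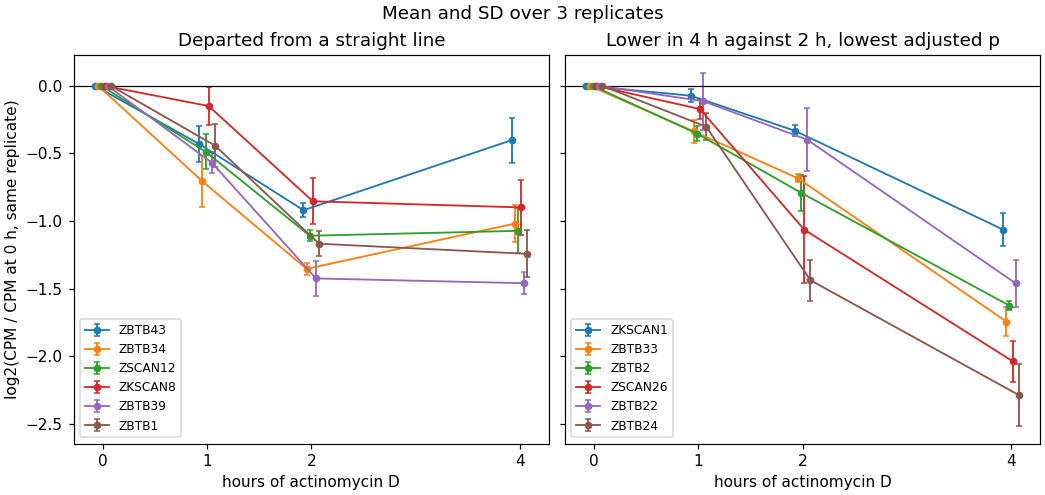
Change in log2(CPM) from the 0 h library of the same replicate (y axis) against hours of actinomycin D (x axis, points shifted slightly for legibility), as mean and SD of 3 replicates. Left: of the 9 members that departed from a straight line, the 6 with the highest change at 4 h against 2 h, which flatten or turn up after 2 h. Right: the 6 members with the lowest adjusted p for a fall at 4 h against 2 h, all of which fall further, by at least 0.73 log2 units.

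By role, all 3 methyl-CpG binders fell over the course and again at 4 h against 2 h, comparisons in which 32.1% and 18.3% of all genes and 50 and 22 of the 60 tested members were lower. Beside ZBTB33, ZBTB4 had 38.8, 42.4 and 40.3 CPM at 0 h and 20.5, 22.7 and 23.3 at 4 h. ZBTB38 had 30.4, 27.7 and 28.3 CPM at 0 h and 15.6, 16.5 and 16.5 at 4 h. Slopes were -0.43 ± 0.029 (SE, adjusted p = 6.25e-09) for ZBTB33, -0.23 ± 0.023 (SE, adjusted p = 3.66e-07) for ZBTB4 and -0.21 ± 0.022 (SE, adjusted p = 4.98e-07) for ZBTB38. No library of 4 h reached a 0 h value in any of the 3 genes.

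The paralogs ZBTB7A, a repressor of fetal globin also called LRF, and ZBTB7B, which directs helper T cell fate and is also called ThPOK, both fell. ZBTB7A had 25.4, 23.8 and 21.5 CPM at 0 h and 10.4, 8.31 and 8.84 at 4 h, with a slope of -0.36 ± 0.055 (SE, adjusted p = 2.88e-05). ZBTB7B had 26.1, 24.4 and 30.4 CPM at 0 h and 20.5, 16.7 and 23.1 at 4 h, with a slope of -0.11 ± 0.036 (SE, adjusted p = 0.017), and did not pass without replicate 2. Their difference was not tested.

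ZBTB17, the MYC partner MIZ1, had 37.3, 31.9 and 31.6 CPM at 0 h and 34.1, 33.4 and 28.3 at 4 h, and its groups overlapped, with a slope of -0.023 ± 0.028 (SE, adjusted p = 0.49). ZBTB48, which binds telomere repeats and is also called TZAP, had 5.11, 4.72 and 6.39 CPM at 0 h and 5.80, 3.96 and 3.69 at 4 h, with a slope of -0.11 ± 0.056 (SE, adjusted p = 0.1). Neither passed, but ZBTB48 fell with library totals (edgeR adjusted p = 0.0347), with GAPDH plus ACTB as the reference and without replicate 1. ZBTB17 fell with GAPDH plus ACTB, a reference with which 64.2% of all genes fell.

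All 6 tested ZKSCAN genes fell, against 32.1% of all genes, with a median of -0.26 and slopes from -0.53 (ZKSCAN2) to -0.24 (ZKSCAN8). ZKSCAN3, a repressor of autophagy genes, had 7.66, 7.42 and 6.74 CPM at 0 h and 3.43, 3.58 and 4.14 at 4 h, with a slope of -0.26 ± 0.052 (SE, adjusted p = 0.000407). Its close paralog ZKSCAN4 had 6.68, 7.51 and 6.30 CPM at 0 h and 2.01, 2.71 and 2.91 at 4 h, with a slope of -0.41 ± 0.092 (SE, adjusted p = 0.00102). Reads that match both may have been divided between them in a way not given in the sources used here, and the same holds for ZBTB8A with ZBTB8B and for ZSCAN5A with ZSCAN5B. Of the 16 tested ZSCAN genes, 14 fell, against the same 32.1% of all genes, with a median of -0.33.

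Members that did not pass by slope were 8 BTB-type genes (ZBTB17, ZBTB20, ZBTB25, ZBTB40, ZBTB43, ZBTB46, ZBTB47 and ZBTB48) and 2 SCAN-type genes (ZSCAN18 and ZSCAN23). With library totals ZBTB40, ZBTB43 and ZBTB48 fell. With GAPDH plus ACTB as the reference 7 of the 10 fell, all but ZBTB20, ZBTB46 and ZSCAN18, a share near the 64.2% of all genes that fell with it. ZBTB47 had 8.64, 9.25 and 7.54 CPM at 0 h and 8.64, 8.31 and 8.95 at 4 h. ZSCAN18 had 1.47, 1.25 and 1.69 CPM at 0 h and 2.01, 1.64 and 1.46 at 4 h. ZBTB20, a repressor of alpha-fetoprotein in liver, had 7.56, 1.64 and 4.52 CPM at 0 h and 4.26, 4.06 and 4.48 at 4 h, where the 0 h libraries alone spanned the 4 h values. In GENCODE, exons of ZBTB20, ZBTB46, ZBTB47, ZBTB8A and ZSCAN2, among others, overlap exons of other genes. The overlapping exons are on the same strand for ZBTB8A, on both strands for ZBTB20 and on the opposite strand for ZBTB46, ZBTB47 and ZSCAN2. The libraries were stranded, but whether the counting used strand is not given in the sources used here. ZBTB12, ZBTB37, ZBTB41, ZBTB7B, ZBTB8A and ZSCAN2 passed in the full fit and lost the call when at least 1 replicate was left out. The lowest slope of these 6 was -0.14 (ZSCAN2).

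BTB-type genes with few exons had lower slopes than those with many. The 20 with at most 3 exons had a median slope of -0.37, and 18 of them fell, against 55.2% of 1563 tested genes with 1 to 3 exons. The 12 with 4 to 8 exons had a median of -0.21, with 10 falls, against 31.8% of 4661 genes with 4 to 9 exons. In the 6 with 11 to 18 exons (ZBTB40, ZBTB17, ZBTB20, ZBTB11, ZBTB41 and ZBTB48) the median was -0.087, and 2 fell, ZBTB11 and ZBTB41, a share near the 26.2% of 5635 genes with 10 or more exons. Over all tested genes the medians were in the same order, at -0.15 at 1 to 3 exons and 0.025 at 10 or more. Spearman's rho between slope and exon number was 0.43 over the 38 BTB-type genes, 0.14 over the 22 SCAN-type genes and 0.20 over 11859 genes. These are descriptions across genes that share libraries, with no test. SCAN-type genes spanned only 3 to 8 exons, with medians in the same order. The 10 with 3 to 4 exons had a median slope of -0.48, and 9 fell. In the 12 with 5 to 8 exons the median was -0.28, and 11 fell. Of all genes 32.1% fell.

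The 5 tested members with overlapping pentamers, whose sequences are printed above, all fell, where 50 of the 60 tested members and 32.1% of all genes fell. The 5 slopes were -0.58 (ZSCAN9), -0.53 (ZKSCAN2), -0.47 (ZBTB26), -0.38 (ZBTB39) and -0.13 (ZBTB37). The last passed only narrowly (edgeR adjusted p = 0.0494). The 10 tested members without any ATTTA had a median slope of -0.40, below the -0.28 of the 50 that had it. ZSCAN16, ZSCAN21, ZSCAN26 and ZBTB45, 4 of the 12 steepest falls above, were among the 10. Over all 11390 genes Spearman's rho between slope and ATTTA per kilobase was -0.23, a measure unlike the medians above. This rho was -0.20 over the BTB-type and 0.023 over the SCAN-type genes. These values were not tested.

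Of the SCAN-type genes, 9 of those tested lie between positions 28107689 and 28443502 of chromosome 6 (GRCh38). In this cluster 8 of 9 fell, with a median slope of -0.41, and 12 of the 13 elsewhere fell, with a median of -0.29. Of all genes 32.1% fell. Neighbours in it had unlike slopes, though the differences were not tested: ZSCAN16 had a slope of -0.54 and ZKSCAN8, 11801 bases on, of -0.24. ZSCAN31 (-0.60) and ZKSCAN3 (-0.26) overlap in the annotation. ZSCAN23 at the end of the cluster did not pass, at -0.12 ± 0.093 (SE, adjusted p = 0.267). On chromosome 14, ZBTB1 and ZBTB25 also overlap in the annotation, and ZBTB1 fell while ZBTB25 had 4.71, 3.47 and 4.88 CPM at 0 h and 4.14, 2.71 and 3.25 at 4 h, with a slope of -0.11 ± 0.061 (SE, adjusted p = 0.133).

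Related genes stand outside the naming rule. Of 13 BTB zinc finger genes listed under other names, 8 were in the table and 6 were tested, the rest of the list being mostly former names of ZBTB genes. All 6 fell, against 32.1% of all genes, with a median slope of -0.34, from PATZ1 (-0.46) to HIC2 (-0.15), and with BCL6, the germinal centre repressor, at -0.41. Of 35 SCAN genes listed under other names, 25 were in the table and 20 were tested. Of these 15 fell, with a median of -0.24 and ZNF263 lowest at -0.54. In these lists the BTB median was the lower, the reverse of the order among the members. This difference was not tested.

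Transcripts of partner proteins moved both ways, as did those of all genes, of which 32.1% fell and 30.7% rose. Among 6 partners of BTB-type proteins, 5 fell and 1 rose. BCOR (-0.76 ± 0.053 SE) and the scaffold SIN3A (-0.60 ± 0.044) had lower slopes than most members and fell, NCOR1 (-0.059 ± 0.016), BCORL1 (-0.32 ± 0.040) and CUL3 (-0.16 ± 0.017) fell, and HDAC3 rose (0.13 ± 0.014). Among 5 partners of KRAB proteins, SETDB1 fell (-0.12 ± 0.020), and TRIM28 (0.087 ± 0.016) and CBX1 (0.069 ± 0.013) rose. CBX3 (0.034 ± 0.019) and CBX5 (-0.051 ± 0.033) did not pass. These rises are relative to TMM scaling: with GAPDH plus ACTB as the reference none of the 3 that rose (HDAC3, TRIM28 and CBX1) had a positive slope.

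With GAPDH plus ACTB as the reference, the median slope of all genes shifted by -0.14 log2 units per hour, and 36 BTB-type and 21 SCAN-type genes fell, against 64.2% of all genes. Relative to the median of all genes, the class medians stayed at -0.29 (BTB-type) and -0.31 (SCAN-type), next to -0.30 and -0.31 under TMM.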

How the data were processed

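RNA-Seq libraries of shA673-1c cells (12, poly(A)-selected and stranded) were analysed from counts. The authors deposited whole-number counts of reads per gene symbol. The submitters' processing notes name FastQC, STAR and hg19 without roles. The methods of the paper describe Prinseq, STAR, Salmon and tximport for libraries of this kit in general and do not name these libraries, so how reads of paralogs and overlapping genes were counted is not given in the sources used here. All 12 columns were matched to samples by title.

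Counts were fitted with edgeR 4.0.16 in R 4.3.3 (TMM, glmQLFit and glmQLFTest, mean count of 10 or more, Benjamini-Hochberg adjustment over 12032 genes). Time entered as a number for slopes, as 4 groups for contrasts, and as 2 polynomial terms for departure from a line. Standard errors come from the F statistic. The common biological coefficient of variation was 0.0905. In a test on simulated data for the slope (11985 genes), 24 of 45 genes were recovered at 0.1 log2 units per hour, 44 of 50 at 0.25 and 53 of 53 at 0.5, and 7.03% of calls were unchanged genes. The simulation changed 199 genes, up or down, and held no replicate effect. In the data 32.1% of genes fell and 30.7% rose, so these shares may not carry over.

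Replicate numbers come from the labels. Deviations from the time means correlated in each of 18 same-numbered pairs of libraries (0.300 to 0.612), so the numbers were taken to pair the samples. The main fits left this pairing out, and only the fits with the replicate block used it. With the block, members lower at 1 h against 0 h went from 11 to 27, and departures from a line from 9 to 26.

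Gene features are from GENCODE version 44 (GRCh38), matched by symbol or RefSeq synonym for 11859 of the tested genes. The genes with values in every library were the 6 steepest falls that passed and were seen in all 3 replicates, the 3 highest at 0 h in each type and the 4 clearest departures from a line. Others were named for their role or, where stated, after their values were seen. One gene of the partner lists was left out of their counts and is not reported here. The members, lists and tests were chosen with earlier results of these data known. Alternatives were library totals, DESeq2 size factors, GAPDH plus ACTB, DESeq2 1.42.0, no or a stricter count filter, the replicate number as a block, 2 of the 3 replicates and 3 of the 4 times.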

Additional observations from a re-analysis of the deposited data

How the results depend on the processing

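Counts of members that fell by slope or at 4 h against 0 h stayed within 1.5 times their value under every alternative run. Slopes of BTB-type genes had a median of -0.32 with library totals, -0.42 with GAPDH plus ACTB, -0.38 over 0, 1 and 2 h and -0.24 over 1, 2 and 4 h. For SCAN-type genes these medians were -0.34, -0.44, -0.50 and -0.26, with -0.29 when no filter on counts was used and -0.32 at a mean of at least 30 counts. Leaving out a replicate gave BTB-type medians of -0.29 to -0.26 and SCAN-type medians of -0.32 to -0.29. The SCAN-type minus BTB-type median was -0.024 by DESeq2, -0.00090 with no filter, -0.034 at a mean of at least 30 counts, -0.12 over 0, 1 and 2 h, -0.012 over 1, 2 and 4 h, and between -0.035 and -0.018 without 1 replicate.

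At 1 h against 0 h, 12 BTB-type genes were lower with GAPDH plus ACTB. At 4 h against 2 h, 21 BTB-type and 12 SCAN-type genes were lower with that reference, next to 14 and 8 under TMM. With the replicate block, 16 BTB-type and 11 SCAN-type genes were lower at 1 h against 0 h, 3 members were higher at 4 h against 2 h, 26 members departed from a line, and ZBTB40 passed by slope. The block changed no other call of a slope. Without 1 replicate the BTB-type counts ranged from 0 to 5 at 1 h against 0 h, from 9 to 17 at 2 h against 1 h and from 8 to 12 at 4 h against 2 h. The SCAN-type counts ranged from 0 to 1, from 7 to 12 and from 5 to 7, and departures from a line from 0 to 4. The slope of ZBTB41 was 0.011 over 0, 1 and 2 h, and that of ZBTB47 was -0.13 with GAPDH plus ACTB. The cause of these differences was not tested.

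Over 0, 1 and 2 h 7 members that fell lost the call, ZBTB41 among them, and ZBTB43 gained it. Over 1, 2 and 4 h 11 lost it. Depth limits the genes with few counts: ZBTB46, ZSCAN18, ZSCAN23 and ZSCAN31 had means under 20 counts.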
